A study of Mus musculus with 12 samples.

Results

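The genes described here encode 37 enzymes and regulators of nucleotide synthesis and one-carbon metabolism, followed through the activation of mouse B cells. They were found by gene identifier and are 37 of the 27179 genes of the deposited table. They fall into 5 steps, with 12 genes of purine synthesis and its supply of PRPP, 5 of pyrimidine synthesis, 7 of salvage and nucleotide kinases, 5 of folate one-carbon metabolism and 8 of deoxynucleotide supply. RNA-Seq libraries of polyadenylated RNA were made from 6 stages with 2 biological replicates each, which gave 12 libraries. All B cells came from spleens of male C57BL/6 mice aged 6 to 12 weeks. The naive B cells received no treatment, and every later stage was cultured with 25 µg/ml lipopolysaccharide (LPS), a bacterial product that activates B cells through Toll-like receptor signalling. Cells that had not yet divided, recognised by the highest level of the dye CellTrace Violet, were sorted at 3, 10 and 33 h, the last just before the first division. On day 4 the culture was sorted by the markers CD22 and CD138 into expanded B cells, which were CD22+CD138-, and the antibody-secreting plasmablasts that arise from them, which were CD22-CD138+. Plasmablasts and expanded cells therefore come from the same kind of culture, and all activated stages share the same stimulus. By the study's methods, the day 4 cultures had a lower cell density than those sampled at 3, 10 and 33 h. Density and stage thus cannot be told apart when day 4 cells are compared with undivided ones. Naive cells were sorted from spleen, while the cultures began from B cells isolated by negative selection.

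Resting lymphocytes make few new nucleotides, and a cell that prepares to divide has to supply both RNA and DNA synthesis. Purines are built on phosphoribosyl pyrophosphate (PRPP) with carbon units carried by folate, and pyrimidines are built as a ring before PRPP is added. Ribonucleotide reductase turns ribonucleotides into deoxynucleotides, thymidylate synthase uses a folate carbon to make dTMP, and salvage enzymes recover bases and nucleosides from outside or from turnover. In dividing lymphocytes these pathways are the targets of drugs such as mycophenolate, which inhibits IMP dehydrogenase, and leflunomide, whose metabolite inhibits dihydroorotate dehydrogenase.

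The libraries held 23026619 to 60585587 counts, with a median of 37839944. All 37 genes passed the filter on low counts, as did 13195 genes in all. Levels are given as RPKM, counts divided by exon length and by library size, with library sizes scaled by TMM (trimmed mean of M values). A change was called when edgeR's TREAT test against a fold change of 1.5 gave an adjusted p under 0.05 over all 13195 genes, and it is given as a log2 fold change with its standard error. With 2 libraries on each side no exact test of a single gene can go below p = 0.333, so each p rests on a spread shared across genes and stages. B cell markers were present at every stage. The naive libraries, replicate 1 and then 2, also held markers of myeloid cells (summed over 6 markers 274 and 121 CPM, counts scaled to library size). Erythroid markers summed to 196 and 146 over 5 markers in the same order. At later stages the myeloid and erythroid sums were at most 37.4 and 2.11. The myeloid marker S100a8 was at 0 in both libraries of all 5 later stages, and Lyz2, Csf1r and S100a9 were below their naive levels there. Itgam went the other way, from 8.74 and 5.08 CPM in naive cells to 17.9 and 13.5 after 33 h and 24.3 and 21.8 in expanded cells. Adgre1 was at 10.7 and 10.6 in naive cells and 13.1 and 13.4 in expanded cells. The 6 T cell markers summed to 62.6 and 66.7 in naive and 9.06 to 38.3 later. Most of the naive sum was Lck, at 59.8 and 64.1 CPM. Cd3d, Cd3e, Cd3g, Cd4 and Cd8a were each between 0.1 and 1.2 in the naive libraries. The part of other cell types in the changes from naive cells was not tested. In bulk RNA a smaller share of cells that express a gene and less RNA of it per cell cannot be told apart.

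The steps moved at different times. From naive to 3 h, 16 of the 37 genes rose and 4 fell, where 20.9% of all tested genes rose and 24.2% fell. Purine genes made up 9 of the 16 rises, and 3 of the 4 falls were deoxynucleotide genes. From 3 h to 10 h, 16 rose and 3 fell (17.2% and 13.3% of all genes), now with 6 deoxynucleotide and 4 kinase or salvage genes among the rises. From 10 h to 33 h, 7 rose and none fell (10.0% and 4.41% of all genes), and all 7 were deoxynucleotide genes. From 33 h to expanded cells no gene was called in either direction (6.87% and 3.56% of all genes). From expanded cells to plasmablasts 4 rose and 15 fell (14.0% and 12.1% of all genes), and 8 of the falls were purine genes.

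The counts of 0 depend on the 1.5-fold threshold. At an unadjusted TREAT p under 0.05, 0 genes fell from 10 h to 33 h, and 0 rose and 0 fell from 33 h to expanded cells. DESeq2 against the same fold also called 0 in these 3 cases. The F-test for a change of any size called 15 higher and 4 lower from 10 h to 33 h (23.1% and 22.2% of all genes), and 3 higher and 12 lower from 33 h to expanded cells (18.5% and 20.8%). Its counts were 24 and 8 from naive to 3 h (34.5% and 36.2%), 25 and 8 from 3 h to 10 h (32.0% and 30.0%) and 7 and 25 from expanded cells to plasmablasts (27.2% and 29.6%). For the long comparisons from naive cells they were 32 and 2 to 33 h (35.8% and 35.1%) and 25 and 6 to plasmablasts (38.2% and 35.6%). Scaling by library size alone shifted the median of all genes by -0.21, 0.33 and -0.33 (log2) at naive to 3 h, 3 h to 10 h and expanded to plasmablast. Under it 23 rose and 1 fell from 3 h to 10 h, and 2 rose and 23 fell from expanded cells to plasmablasts.

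**Figure D1:**
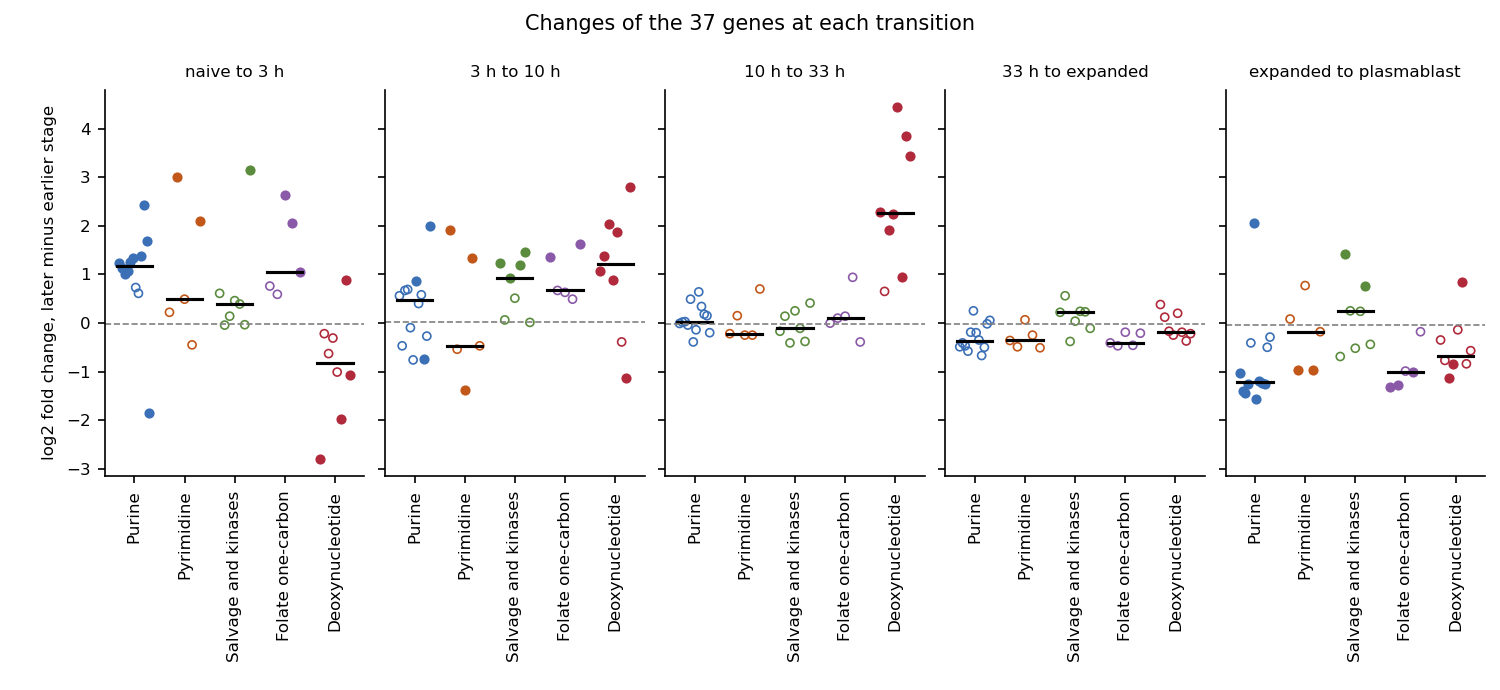
Log2 fold change (later minus earlier stage, vertical axis) of each of the 37 genes at the 5 transitions, grouped by step on the horizontal axis; filled points were called, open points were not, black bars are step medians and the dashed line is the median of all 13195 genes. The deoxynucleotide median is -0.82 from naive to 3 h and 2.26 from 10 h to 33 h, while the purine median goes from 1.18 at the first transition to -1.22 at the last.

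Over the whole course the naive stage held the lowest mean of 19 genes, 3 h that of 9, plasmablasts that of 6, 10 h that of 2 and 33 h that of 1. The mean was highest after 33 h for 13 genes, after 10 h for 9, after 3 h and in expanded cells for 5 each, in plasmablasts for 4 and in naive cells for 1, Samhd1. Both libraries of the highest stage were clear of all others for 25 of the 37 genes, and those of the lowest stage for 31. From naive to 33 h 28 rose and 2 fell, where 22.2% and 20.7% of all genes did, and all 5 folate genes were among the rises. From naive to plasmablast 21 rose and 1 fell, against 26.5% and 23.3% of all genes. These long comparisons share the naive libraries with the first transition and are not independent of it. The share of all counts that fell on the 37 genes was 0.295% and 0.307% in naive libraries, 0.323% and 0.398% after 3 h, 0.715% and 0.673% after 10 h, 0.767% and 0.882% after 33 h, 0.694% and 0.689% in expanded cells and 0.429% and 0.426% in plasmablasts.

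**Figure D2:**
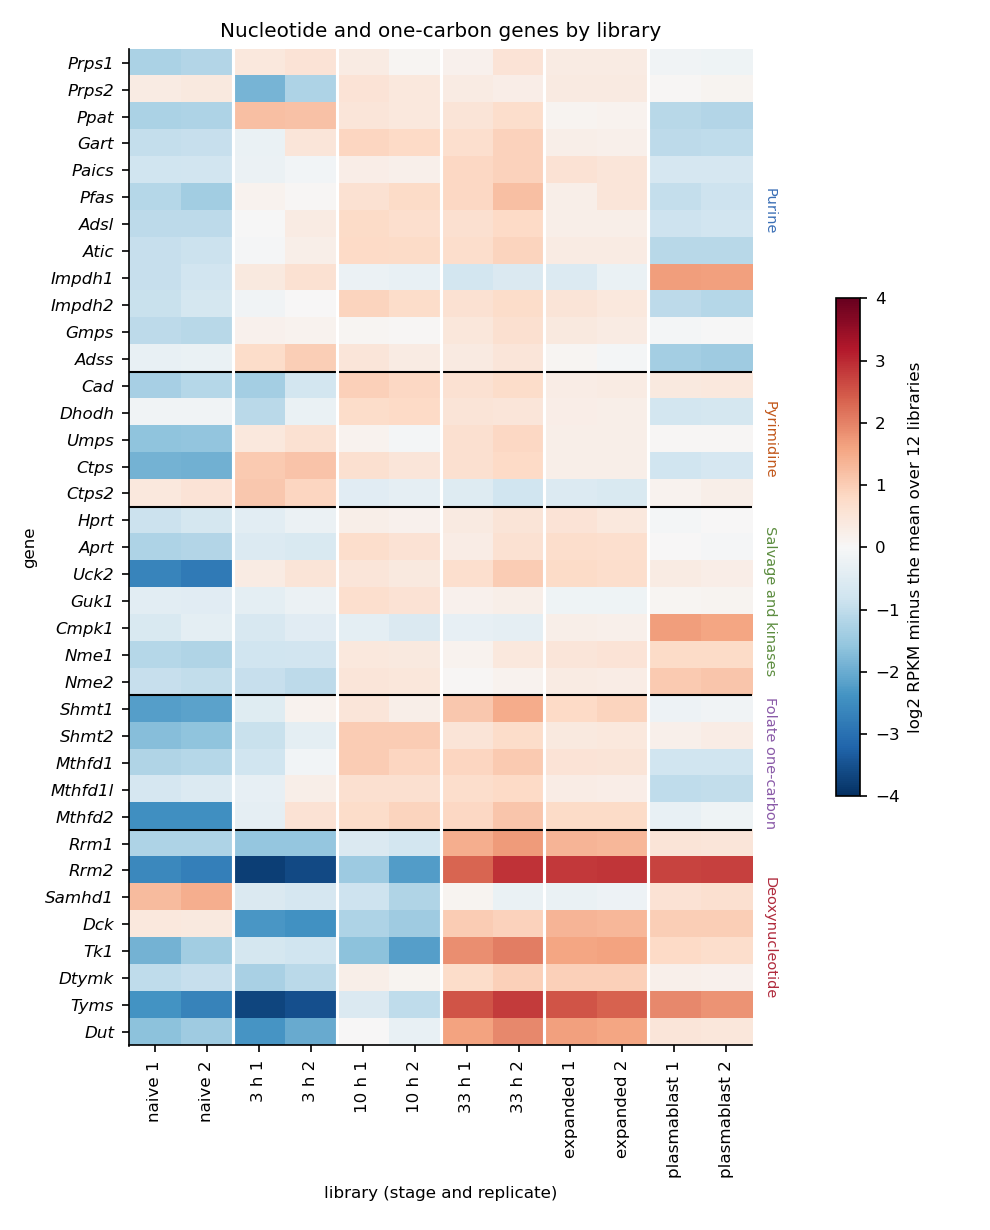
Each gene's log2 RPKM in the 12 libraries (columns, by stage and replicate) minus its mean over them (colour), with the genes in rows grouped by step. Most genes are lowest in the naive columns, the deoxynucleotide genes other than Samhd1 are low at 3 h and high from 33 h, and Impdh1 and Cmpk1 are high in the plasmablast columns, at 99.8 and 98.6 and at 254 and 236 RPKM.

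Promoter stretches with an E-box are shown because this motif was in a larger share of windows here than among all tested genes. RefSeq windows of 250 bases upstream of annotated starts (GRCm38.p6) were found for 35 of the 37 genes, all but Pfas and Dhodh. CACGTG, the palindromic E-box that Myc and Max among other factors can bind, was in the windows of 6 of the 35 genes, or 17.1%, against 9.81% of the 10281 tested genes with a window. It lies in the following stretches, written 5′ to 3′ on the gene's strand with the motif in capitals.
Atic, chr1:71557137-71557155 (+): ggacctcggggtCACGTGg
Paics, chr5:76951087-76951116 (+): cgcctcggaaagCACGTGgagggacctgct
Impdh2, chr9:108560314-108560343 (+): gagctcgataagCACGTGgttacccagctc
Nme1, chr11:93968273-93968302 (-): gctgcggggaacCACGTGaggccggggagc
Nme1, a second start, chr11:93968037-93968066 (-): agcttgatacgcCACGTGggctcgcctttg
Tyms, chr5:30073669-30073698 (-): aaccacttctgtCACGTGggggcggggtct
Dtymk, chr1:93802065-93802094 (-): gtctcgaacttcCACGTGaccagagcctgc
The match ends 1 base from the annotated start in Atic and 197 bases from it in Paics. The stretches of Atic, Paics and Impdh2 and the first of Nme1 overlap exons annotated in GENCODE. From naive to 3 h, when 20.9% of all tested genes rose, Atic rose, Tyms fell and the other 4 were not called. From 3 h to 10 h, when 17.2% of all genes rose, Impdh2, Nme1, Tyms and Dtymk rose and Atic and Paics were not called. The E2F motifs TTTCCCGC, TTTCGCGC, TTTGCCGC and TTTGGCGC, read on both strands, were in the window of 1 gene, Ppat (2.86% against 3.97% of tested genes), and in that of none of the 8 deoxynucleotide genes. CCAAT was in 12 windows (34.3% against 40.9%), 2 of them those of Rrm1 and Rrm2, and TGATGNAAT, a form of the amino acid response element, in none (0.496% of tested genes). A match is a description of letters in these windows, and the absence of one says nothing about the factor. None of these shares was tested.

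From naive to 3 h 9 of the 12 purine genes rose, Prps2 fell, and Paics and Impdh2 were not called. Of all genes, 20.9% rose and 24.2% fell. Ppat, the amidotransferase that commits PRPP to the purine ring, was at 11.4 and 11.6 RPKM in naive cells, 62.2 and 61.5 after 3 h, 38.0 and 36.1 after 10 h, 39.2 and 44.7 after 33 h, 29.4 and 29.8 in expanded cells and 12.7 and 12.2 in plasmablasts. It was highest at 3 h, clear of every other stage, and the plasmablast level came back near the naive one. Its rise to 3 h was 2.43 ± 0.089 (SE; adjusted p = 6.9e-10), the largest of the purine genes. Ppat (chr5:76913249-76951578) and Paics (chr5:76951302-76967509) are transcribed away from each other, and their GENCODE exons overlap by 272 bases, which is 6.15% of Ppat and 8.67% of Paics; the strand setting of the counting is not given in the sources used here.

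Of the enzymes after Ppat, 7 rose at the same transition. Gart, which carries 3 activities of the ring pathway, was at 46.9 and 47.5 RPKM in naive cells, 75.3 and 125 after 3 h, 165 and 157 after 10 h, 143 and 170 after 33 h, 106 and 104 in expanded cells and 43.9 and 44.2 in plasmablasts. The 3 h libraries lay far apart, and both were above the naive ones. Its rise to 3 h was 1.08 ± 0.18 (adjusted p = 0.005), and without the 3 h replicate 2 it was 0.65 and no longer called. Atic, which closes the purine ring with a folate carbon, stood at 62.9 and 64.8 in naive cells, 115 and 139 after 3 h, 204 and 202 after 10 h, 193 and 221 after 33 h, 150 and 148 in expanded cells and 55.3 and 54.6 in plasmablasts. It was lowest in plasmablasts and highest at 10 h and 33 h, which overlapped. Adss, adenylosuccinate synthetase of the branch to AMP, was at 81.2 and 96.4 RPKM after 3 h, its highest stage and clear of the others, and at 67.6 and 60.6 after 10 h. Pfas, the amidotransferase of a middle step, and Adsl, adenylosuccinate lyase, rose to 3 h by 1.37 ± 0.14 and 1.23 ± 0.11. Paics, which joins a pair of steps in the middle of the pathway, changed by 0.61 ± 0.081 (adjusted p = 0.31) and was not called, although its naive (58.9 and 59.3) and 3 h values (86.0 and 94.2 RPKM) did not overlap.

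From 3 h to 10 h the purine genes divided. Prps2 and Impdh2 rose, Ppat fell by 0.74 ± 0.084 (TREAT adjusted p = 0.04), and the other 9 were not called. Of all genes, 17.2% rose and 13.3% fell. The median over the 12 was 0.48 against 0.02 for all genes. The call of Ppat was lost under 14 of 25 alternatives, 8 of which left out 1 library (each naive, 3 h, 10 h and expanded library), with values of -0.77 to -0.70 over all 12 libraries left out in turn. Impdh2 (0.87 ± 0.10, adjusted p = 0.0074) lost its call without 10 h replicate 1 (0.80) and with DESeq2. From 10 h to 33 h none of the 12 was called by TREAT, and the F-test found 3 higher and 1 lower (23.1% and 22.2% of all genes).

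The fall to plasmablasts took 8 of the 12 purine genes, when 12.1% of all genes fell. Ppat, Gart, Paics, Pfas, Adsl, Atic, Impdh2 and Adss changed by -1.56 to -1.03, with Impdh2 at -1.56 ± 0.10, Atic at -1.44 ± 0.099 and Adss at -1.40 ± 0.10 (adjusted p = 4.8e-06). Prps1, Prps2 and Gmps were at -0.50, -0.29 and -0.41 and were not called. Against naive cells, 3 of the 12 purine genes were higher and 1 was lower in plasmablasts, where 26.5% and 23.3% of all genes were. The other 8 were not called, and the median change over the 12 was 0.11, against 0.023 for all genes. Adss was below its naive level, with 40.0 and 40.8 RPKM in naive cells and 18.8 and 18.0 in plasmablasts (-1.14 ± 0.10, adjusted p = 4.4e-05). Gmps, GMP synthetase, remained above it at 29.5 and 31.2 against 15.1 and 14.4 RPKM (1.04 ± 0.089).

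**Figure D3:**
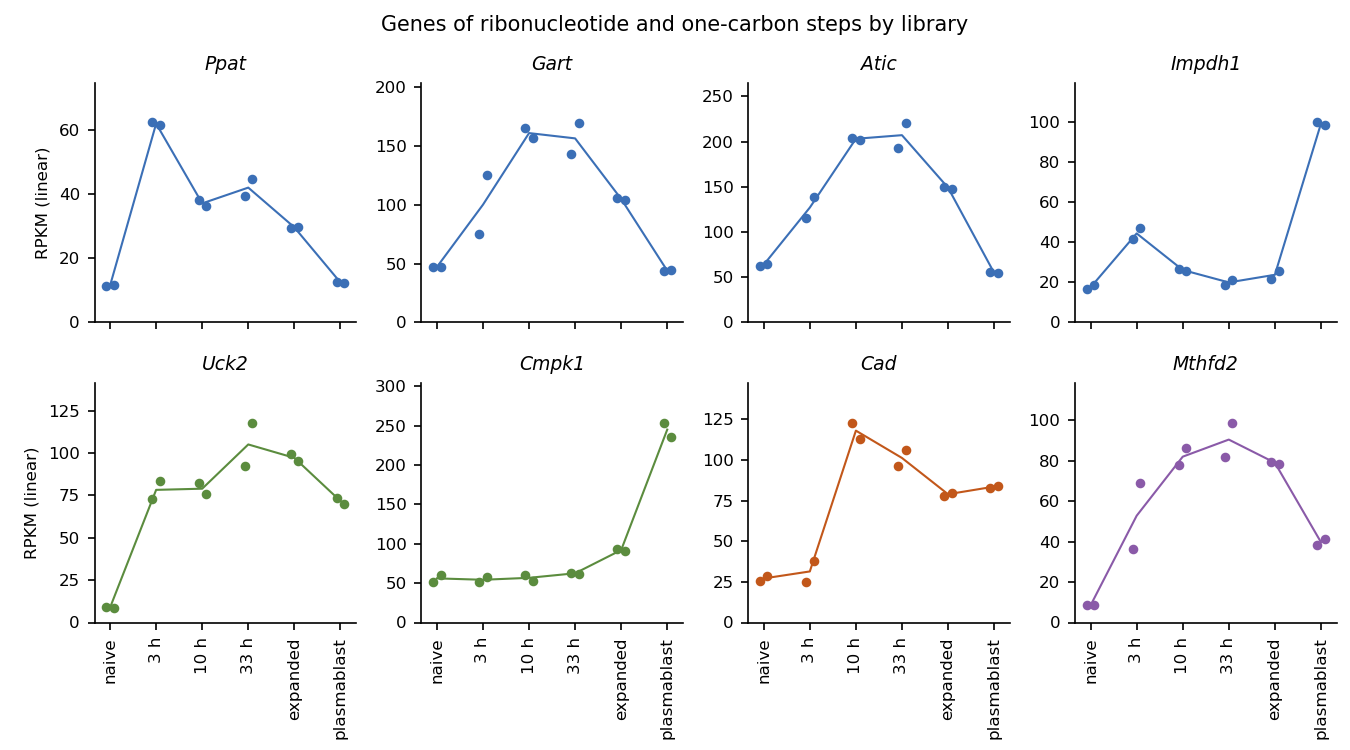
RPKM (linear vertical axis, from 0) of 8 genes of the purine, salvage, pyrimidine and folate steps in each library by stage, with points for the 2 replicates and a line through their mean. Ppat peaks after 3 h (62.2 and 61.5), Gart and Atic after 10 h and 33 h, Cad steps up between 3 h and 10 h, and Impdh1 and Cmpk1 are highest in plasmablasts.

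Impdh1 was the 1 purine gene that rose from expanded cells to plasmablasts. IMP dehydrogenase, the rate-limiting enzyme on the branch to GMP, has 2 forms, and Impdh1 was at 16.6 and 18.5 RPKM in naive cells, 41.5 and 47.4 after 3 h, 26.6 and 25.8 after 10 h, 18.8 and 21.2 after 33 h, 21.7 and 25.9 in expanded cells and 99.8 and 98.6 in plasmablasts. It had an early peak and a higher late one, and the plasmablast libraries were clear of all others. The rise from expanded cells to plasmablasts was 2.06 ± 0.11 (adjusted p = 7.3e-08), when Impdh2 fell from 44.0 and 41.5 to 14.8 and 14.1 RPKM. The log2 ratio of Impdh2 to Impdh1 per length was 0.017 and 0.044 in naive cells, -0.56 and -0.61 after 3 h, 1.09 and 0.99 after 10 h, 1.32 and 1.27 after 33 h, 1.02 and 0.68 in expanded cells and -2.75 and -2.80 in plasmablasts. The range of stage means was 4.07, or 16.8-fold (exact permutation test over 10395 partitions of the libraries, p = 1.9e-04, adjusted over 8 pairs 5.1e-04).

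The level of Impdh2 depends on where its reads were counted. Impdh2 (chr9:108560436-108565577) shares 34.1% of the 81-base windows of its transcripts with Impdh2-ps, a processed pseudogene on chromosome 8 that has its own entry in the deposited table. Impdh2-ps held 186052 counts over the 12 libraries and Impdh2 26088, and the ratio of the copy to the gene stayed between 6.61 and 7.73 in every library. With both summed, the log2 ratio to Impdh1 was 4.40 at 33 h and 0.31 in plasmablasts, so that Impdh2 with its copy exceeded Impdh1 at every stage while the range over stages was 4.09. The same sum gave a change of 0.76 from naive to 3 h (adjusted p = 0.018), which was then called, against 0.73 ± 0.10 (adjusted p = 0.065) for Impdh2 alone. How reads that match both loci were assigned is not given in the sources used here.

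The PRPP synthetases moved in opposite directions from naive to 3 h. Prps2 was at 39.1 and 40.9 RPKM in naive cells, 8.67 and 13.3 after 3 h and 46.0 and 42.6 after 10 h, and lay between 32.2 and 40.3 from 33 h on. It fell by 1.85 ± 0.15 and then rose by 2.00 ± 0.15, while Prps1 went from 15.8 and 16.6 in naive cells to 50.2 and 54.4 at 3 h (1.69 ± 0.12, adjusted p = 9.5e-07). At 3 h Prps2 was lower than in any other library and Prps1 had its highest mean, although a 33 h library reached 54.5. Their log2 ratio, Prps2 to Prps1, went from 1.31 and 1.30 in naive cells to -2.53 and -2.03 at 3 h and then lay within -0.51 and 0.091 in all later libraries (range of means 3.58, exact permutation p = 0.0028, adjusted 0.0037). Prps1l3, a protein-coding copy of Prps1 on chromosome 12, shares 4.39% of the 81-base windows of Prps1 transcripts. It held 58316 counts against 34169 for Prps1, with a ratio between 1.28 and 3.22 in each library. Whether its counts stem from Prps1 transcripts was not tested. With Prps1l3 added, Prps1 rose to 3 h by 1.27. The log2 ratio of Prps2 to Prps1 was then -0.75 in naive cells, -3.91 after 3 h and -1.33 in plasmablasts, so that Prps1 with its copy was the higher at every stage. The range of the ratio was then 3.16, and the change from naive to plasmablast was 0.30 and not called, against 1.06 ± 0.12 for Prps1 alone.

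In pyrimidine synthesis the late enzymes rose before the early ones. Umps, which makes UMP, went from 14.5 and 14.8 RPKM in naive cells to 58.3 and 67.0 at 3 h (2.10 ± 0.11), and Ctps, which makes CTP, from 9.18 and 9.04 to 70.8 and 75.6 (3.01 ± 0.096, adjusted p = 2.6e-10). Cad, the enzyme that opens the pathway, was at 25.5 and 28.7 in naive cells and 24.7 and 38.1 at 3 h, and these groups overlapped. It reached 123 and 113 after 10 h (1.91 ± 0.16, adjusted p = 6.4e-06), 96.4 and 106 after 33 h, 78.0 and 79.8 in expanded cells and 82.9 and 84.2 in plasmablasts. Dhodh, the mitochondrial dihydroorotate dehydrogenase, likewise rose from 3 h (4.40 and 7.71) to 10 h (15.3 and 15.9 RPKM), by 1.34 ± 0.18.

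At the plasmablast stage Cad and Umps changed by 0.082 ± 0.15 and -0.18 ± 0.10 and were not called, while Ctps fell by 0.96 ± 0.09 (adjusted p = 7.8e-04) and Dhodh by 0.97 ± 0.18 (adjusted p = 0.027). Dhodh lost its call with DESeq2 and without any 1 of the 4 libraries compared, with values of -1.0 to -0.93 over the libraries left out. Against naive cells Cad, Umps and Ctps were higher in plasmablasts by 1.63, 1.65 and 1.17, and Dhodh, at 5.58 and 5.68 against 8.31 and 8.46 RPKM, was not called (-0.57 ± 0.18).

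Ctps2, the other CTP synthetase, on the X chromosome, was like Ctps highest at 3 h, but lay below its naive level from 10 h on. It was at 16.0 and 17.7 RPKM in naive cells, 25.5 and 21.9 after 3 h, 8.80 and 9.46 after 10 h, 8.42 and 6.89 after 33 h, 8.17 and 7.88 in expanded cells and 13.2 and 14.2 in plasmablasts. It fell by 1.38 ± 0.11 from 3 h to 10 h (adjusted p = 1.4e-05) and was 1 of the 2 genes called below naive at 33 h, with Samhd1. On the log2 scale the ratio of Ctps to Ctps2 went from -0.80 and -0.96 in naive cells to 2.66 and 3.09 at 33 h and was 0.58 and 0.59 in plasmablasts. Its range was 3.76 (13.5-fold, exact permutation p = 9.6e-05, the smallest the partitions can give, adjusted 3.8e-04).

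Among salvage enzymes and kinases 1 gene stood out at 3 h. Uck2, which phosphorylates uridine and cytidine, was at 9.39 and 8.28 RPKM in naive cells, 72.9 and 83.6 after 3 h, 82.2 and 75.7 after 10 h, 92.1 and 118 after 33 h, 99.3 and 95.0 in expanded cells and 73.6 and 69.8 in plasmablasts. Every activated library was far above both naive ones, and the rise to 3 h was 3.14 ± 0.13 (adjusted p = 1.5e-09). The other 6 genes of this step changed by -0.044 to 0.61 at that transition and were not called. From 3 h to 10 h Aprt, which recovers adenine, Guk1, guanylate kinase, Nme1 and Nme2, the main nucleoside diphosphate kinases, rose by 0.93 to 1.46. Hprt, which recovers hypoxanthine and guanine, was not called at any of the 5 transitions, although it went from 52.8 and 58.4 RPKM in naive cells to 138 and 128 in expanded cells and was called from naive to 33 h (1.22 ± 0.098).

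From expanded cells to plasmablasts 2 genes of this step rose, when 14.0% of all genes did, and 5 were not called. The F-test found 4 higher and 3 lower (27.2% and 29.6% of all genes). Cmpk1, which phosphorylates UMP and CMP, was at 50.9 to 63.3 RPKM in the 8 libraries up to 33 h, 92.8 and 91.3 in expanded cells and 254 and 236 in plasmablasts. It was flat before division and highest at the end, with a rise to plasmablasts of 1.41 ± 0.1 (adjusted p = 3.1e-06). Nme2 went from 213 and 210 in expanded cells to 352 and 368 RPKM (0.77 ± 0.078, adjusted p = 0.02). This call was lost without either expanded library or plasmablast replicate 2 (0.74 to 0.83 over the libraries left out) and with library size alone (0.43). Nme1 (128 and 133, then 154 and 155) and Guk1 were at 0.24 and 0.25 and not called; both were at -0.093 and -0.078 with library size alone. Aprt, Hprt and Uck2 were at -0.69, -0.52 and -0.44, also not called. With library size alone Aprt (-1.03) and Hprt (-0.85) were called down.

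Nme1 (chr11:93958925-93968272) and Nme2 (chr11:93949814-93956256) are neighbours on the reverse strand. Their log2 ratio per length lay between -1.25 and -0.60 in all libraries, so Nme2 was the higher throughout, and its range over stages was 0.53 (exact permutation p = 0.0036, adjusted 0.0041), the smallest of the 8 pairs. Of the 81-base windows of Nme2, 45.5% also occur in other annotated transcripts, mainly a read-through of both genes. The processed pseudogene Gm5566 shares 4.68% of them and held 0.179 to 0.229 times the counts of Nme2. With Gm5566 added the range was 0.50.

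All 5 folate genes were higher at 33 h than in naive cells, by 1.35 to 3.48. Mthfd2, the mitochondrial methylenetetrahydrofolate dehydrogenase that is low in most adult tissues, was at 8.52 and 8.49 RPKM in naive cells, 36.5 and 69.1 after 3 h, 77.8 and 86.2 after 10 h, 82.0 and 98.9 after 33 h, 79.4 and 78.6 in expanded cells and 38.1 and 41.4 in plasmablasts. Its 3 h libraries were the farthest apart of all 37 genes at that stage, by 0.918 on the log2 scale, yet both lay well above the naive ones. The rise to 3 h was 2.64 ± 0.24 (adjusted p = 7.1e-06). Shmt1, the cytosolic serine hydroxymethyltransferase, went from 6.51 and 6.79 to 21.6 and 33.3 (2.05 ± 0.19), and Shmt2, the mitochondrial form, from 43.7 and 46.4 to 77.2 and 109 RPKM (1.05 ± 0.14), which was 0.75 and not called without 3 h replicate 2.

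Mitochondrial and cytosolic forms differed in timing. Shmt2 rose further to 286 and 291 RPKM after 10 h (1.63 ± 0.14) and was the most abundant folate gene in each library, while Shmt1 reached its highest level, 63.9 and 84.7, after 33 h. The log2 ratio of Shmt2 to Shmt1 was 2.75 and 2.77 in naive cells, 1.84 and 1.71 after 3 h, 2.77 and 3.03 after 10 h, 1.66 and 1.51 after 33 h, 1.85 and 1.80 in expanded cells and 2.66 in both plasmablast libraries. It alternated over a range of 1.32 (exact permutation p = 4.8e-04, adjusted 7.7e-04). Mthfd1, the cytosolic trifunctional enzyme, rose by 1.36 ± 0.17 from 3 h to 10 h, and its mitochondrial relative Mthfd1l by 0.67 ± 0.13, which was not called. Relative to Mthfd1, Mthfd1l per length on the log2 scale went from 0.052 and 0.14 in naive cells to -0.85 and -0.69 at 10 h and stayed within -0.73 and -0.63 thereafter (range 0.87, exact permutation p = 0.0056, adjusted 0.0056).

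In plasmablasts Mthfd1, Mthfd1l and Shmt1 fell by 1.32 ± 0.17, 1.28 ± 0.14 and 1.01 ± 0.18. Shmt2, at 164 and 174 against 189 and 193 RPKM, changed by -0.18 ± 0.13 and was not called, and Mthfd2 was at -0.99 ± 0.22 (adjusted p = 0.052). The call of Shmt1 was lost with DESeq2 and without expanded replicate 2 or either plasmablast library, with -1.06 to -0.95 over the libraries left out. Mthfd2 was called under 7 of the alternatives with the 1.5-fold threshold. Mthfd1 and Mthfd1l ended at 31.1 in both libraries and at 19.3 and 19.4 RPKM, where naive cells had 23.4 and 24.2 and 24.2 and 26.6, and neither was called against naive cells.

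From naive to 3 h 3 of the 8 deoxynucleotide genes fell, 1 rose and 4 were not called, where 24.2% of all genes fell and 20.9% rose. Dck, deoxycytidine kinase of the salvage route, was at 22.3 and 21.7 RPKM in naive cells, 3.28 and 3.10 after 3 h, 7.08 and 6.20 after 10 h, 33.3 and 31.1 after 33 h, 42.3 and 41.6 in expanded cells and 33.1 and 32.6 in plasmablasts. It fell by 2.79 ± 0.10 to 3 h (TREAT adjusted p = 5.9e-10), rank 820 of 13195 genes ordered by fall. At 33 h both libraries were above the naive ones. The change of Dck from naive to 33 h, 0.55, was called by the F-test but not by TREAT. Samhd1, the phosphohydrolase that breaks down deoxynucleotides, fell by 1.97 ± 0.14 from 236 and 266 to 66.2 and 61.7. Samhd1 was the only one of the 37 genes that was highest in naive cells, where myeloid markers were also highest. It was next highest in plasmablasts, at 145 and 153 RPKM, where the 6 myeloid markers summed to 0.217 and 0.405 CPM. A link between Samhd1 and these markers was not tested. Tyms, thymidylate synthase, was low in both stages with 88 and 55 counts in naive libraries and then 19 and 36. It fell by 1.07 ± 0.25 (TREAT adjusted p = 0.027). This call was lost with DESeq2, with the 4 libraries compared alone, and without naive replicate 1 or either 3 h library (-1.20 to -0.91).

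Before 33 h Rrm2 and Tk1 were low beside Rrm1 in RPKM. Rrm2, the small subunit of ribonucleotide reductase, which limits its activity through the cell cycle, was at 3.85 and 3.43 RPKM in naive cells, 1.70 and 1.89 after 3 h, 8.29 and 4.87 after 10 h, 115 and 171 after 33 h, 164 and 166 in expanded cells and 149 and 152 in plasmablasts. Rrm1, the large subunit, was at 24.2 and 23.9, 19.5 and 19.4, 38.1 and 33.9, 155 and 186, 144 and 142, and 80.6 and 79.6 at the same stages. The naive to 3 h change of Rrm2, -1.01 ± 0.29, was not called (adjusted p = 0.062). Tk1, the cytosolic thymidine kinase, was the only gene of the step that was higher at 3 h, at 8.08 and 7.65 against 3.58 and 5.03 (0.88 ± 0.19, adjusted p = 0.045), and then fell by 1.13 ± 0.18. The early rise of Tk1 was lost under 13 of 25 alternatives, among them leaving out naive replicate 1 or any 3 h, expanded or plasmablast library (0.64 to 1.13 over all libraries left out). Its fall to 10 h was lost without 10 h replicate 2 (-0.88) and with library size alone (-0.79).

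From 3 h to 10 h 6 of the 8 genes rose, Tyms by 2.80 ± 0.21, Dut, the dUTPase that keeps uracil out of DNA, by 2.03 ± 0.15, Rrm2 by 1.87 ± 0.27, Dtymk, thymidylate kinase, by 1.37 ± 0.11, Dck by 1.06 ± 0.10 and Rrm1 by 0.89 ± 0.094, the last lost with DESeq2. Their levels at 10 h ranged from Tyms at 2.31 and 1.73 RPKM to Rrm1 at 38.1 and 33.9 and Dtymk at 38.0 and 34.7. Samhd1 was at -0.39 ± 0.14 and was not called.

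From 10 h to 33 h 7 of the 8 rose, and no gene of the other 4 steps was called. The folate gene Shmt1 changed by 0.94 ± 0.18 (TREAT adjusted p = 0.062) and was called under 7 of 25 alternatives. Rrm2 rose by 4.44 ± 0.24 (21.6-fold, adjusted p = 2.7e-07), rank 79 of 13195 genes ordered by rise, Tk1 by 3.84 ± 0.18 (rank 173), Tyms by 3.43 ± 0.15 (rank 241), Dck by 2.28 ± 0.094, Rrm1 by 2.24 ± 0.096, Dut by 1.92 ± 0.14 and Samhd1 by 0.94 ± 0.14. The rise of Samhd1, from 55.1 and 42.8 to 107 and 81.0 RPKM, was the smallest of the 7. Its call was lost with DESeq2 and without 10 h replicate 2 or 33 h replicate 1 (0.73 to 1.14). Dtymk, already at 38.0 and 34.7 RPKM at 10 h, changed by 0.65 ± 0.11 and was not called. Of 24 DNA replication genes set beside the step, such as the Mcm helicase subunits and Pcna, 22 rose at this transition, when 10.0% of all genes did. The median of the 24 was 1.60, against 2.26 for the 8 deoxynucleotide genes and -0.025 for all genes.

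**Figure D4:**
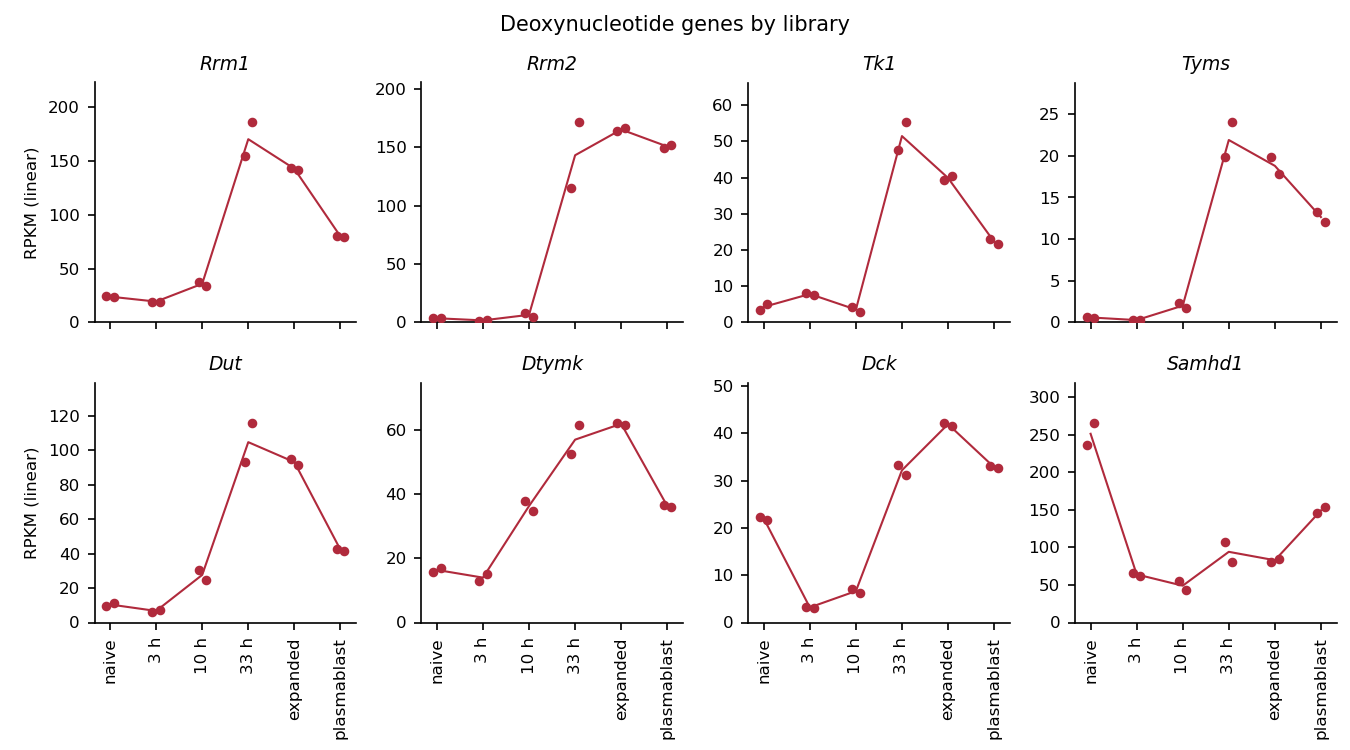
RPKM (linear vertical axis, from 0) of the 8 deoxynucleotide genes in each library by stage, with points for the 2 replicates and a line through their mean. In 6 panels the level climbs between 10 h and 33 h (Rrm2 from 8.29 and 4.87 to 115 and 171), Dtymk climbs from 3 h on, and Samhd1 starts at 236 and 266 in naive cells.

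Within the step the partners did not keep pace. The log2 ratio of Rrm2 to Rrm1 per length was -2.65 and -2.79 in naive cells, -3.51 and -3.36 after 3 h, -2.20 and -2.80 after 10 h, -0.43 and -0.12 after 33 h, 0.18 and 0.23 in expanded cells and 0.88 and 0.93 in plasmablasts. Rrm2 was thus below Rrm1 before division and above it on day 4, over a range of 4.34 (20.2-fold, exact permutation p = 2.9e-04, adjusted 5.8e-04). The log2 ratio of Tk1 to Dck, the thymidine and deoxycytidine arms of salvage, was -2.63 and -2.11 in naive cells, 1.30 in both 3 h libraries, -0.74 and -1.09 after 10 h, 0.52 and 0.83 after 33 h, -0.11 and -0.04 in expanded cells and -0.53 and -0.60 in plasmablasts. It changed sign 3 times before division, with a range of 3.67 (exact permutation p = 9.6e-05, adjusted 3.8e-04).

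**Figure D5:**
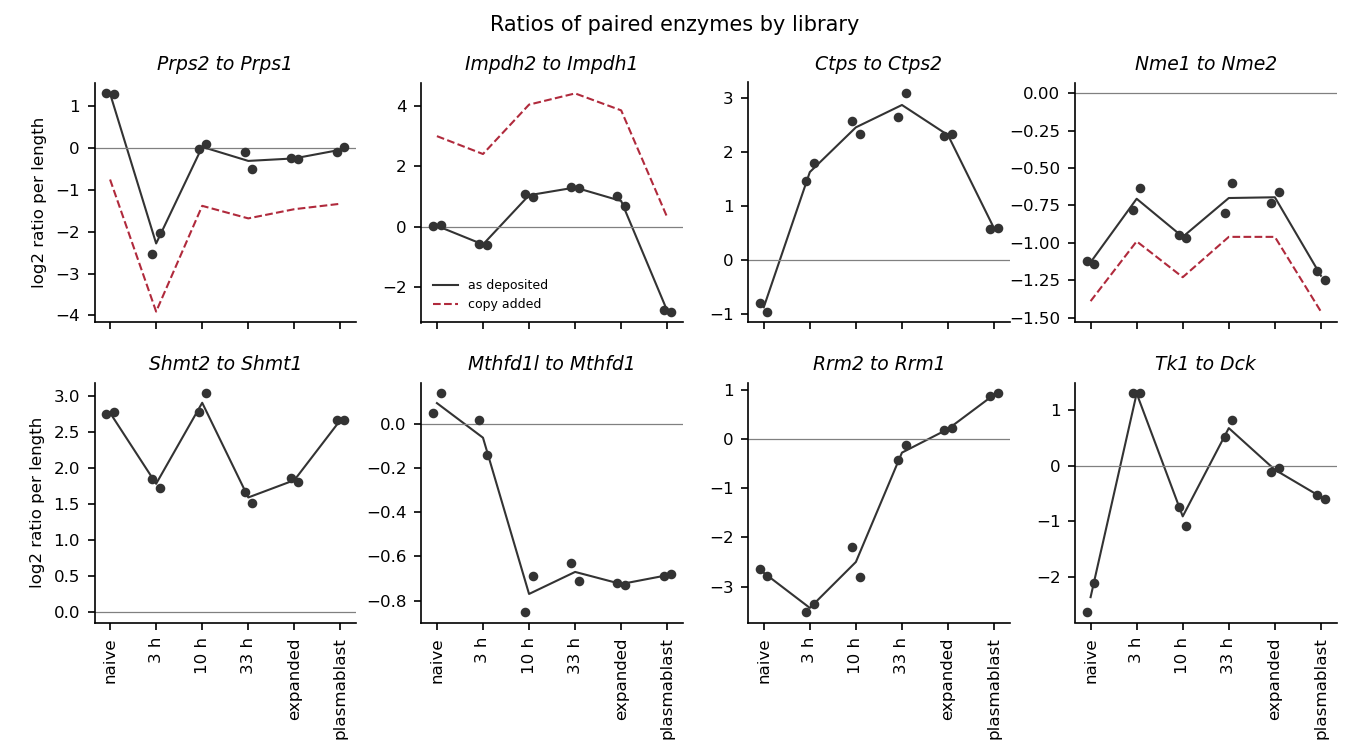
Log2 ratio of the 2 genes of each of 8 pairs, per exon length (vertical axis), in each library by stage. Points are libraries and the solid line joins stage means. The dashed red line gives the means with the counts of the copies Prps1l3, Impdh2-ps and Gm5566 added. The ratio of Impdh2 to Impdh1 drops to -2.75 and -2.80 in plasmablasts, or 0.31 with the copy added, and that of Rrm2 to Rrm1 climbs from -3.51 and -3.36 at 3 h to 0.88 and 0.93.

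In plasmablasts 2 of the 8 fell and 1 rose, where 12.1% of all tested genes fell and 14.0% rose. Rrm1 fell by 0.84 ± 0.093 (adjusted p = 0.0098) and Dut, from 94.8 and 91.3 to 42.8 and 41.7 RPKM, by 1.14 ± 0.14 (adjusted p = 0.001). Samhd1 rose from 80.8 and 84.8 to 145 and 153 (0.85 ± 0.14, adjusted p = 0.039). Tk1, Dtymk, Tyms, Dck and Rrm2 were at -0.84, -0.77, -0.57, -0.35 and -0.14 and were not called. The call of Rrm1 was lost with DESeq2 and without expanded replicate 1 or either plasmablast library (-0.86 to -0.80 over the libraries left out). That of Samhd1 was lost with DESeq2, with library size alone (0.52) and without any 3 h, expanded or plasmablast library (0.82 to 0.92). Compared with naive cells, Rrm2 in plasmablasts was higher by 5.36 ± 0.26 (41.1-fold), Tyms by 4.37 ± 0.18, Tk1 by 2.38 ± 0.18, Dut by 2.02 ± 0.15, Rrm1 by 1.74 ± 0.095 and Dtymk by 1.15 ± 0.11, whereas the median change of the purine genes over the same comparison was 0.11.

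Summed over their genes, the purine, pyrimidine and folate steps were lowest in naive cells and highest at 10 h and 33 h, and the other steps were not. The purine sum was 362 and 371 in naive cells, 943 and 894 after 10 h, 934 and 1057 after 33 h and 450 and 451 in plasmablasts. All sums use the counts as deposited, without the copies. Impdh2-ps held 6.61 to 7.73 times the counts of Impdh2, and Prps1l3 1.28 to 3.22 times those of Prps1. The purine levels therefore depend on where reads were counted. The pyrimidine sum was 73.5 and 78.6 in naive cells, 248 and 228 after 10 h, 240 and 263 after 33 h and 167 and 171 in plasmablasts. The deoxynucleotide sum was 316 and 349 in naive cells, of which Samhd1 was 236 and 266, then 118 and 117 after 3 h, 625 and 726 after 33 h and 523 and 528 in plasmablasts. The salvage and kinase sum grew from 323 and 334 in naive cells to 869 and 825 at 10 h and 1086 and 1083 in plasmablasts, where Nme2 and Cmpk1 together were its larger part. The folate sum was highest at 10 h (576 and 572) and 33 h (507 and 602), whose libraries overlapped.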

How the data were processed

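The deposited values are whole-number counts per gene. Per the methods of the study, the authors used Rsubread to align the 81-base paired-end reads of TruSeq polyA libraries to mm10, and its featureCounts with the inbuilt Entrez annotation to count; the submitters' processing notes also name CASAVA 1.8.2. The treatment of multi-mapping reads and the strand setting are not given in the sources used here. The 12 single-sample files held the same counts as the series table, in which 0 columns could not be mapped to a sample.

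From these counts 1904 genes without a match in the gene name table, 15 mitochondrial, 33 ribosomal RNA and 248 variable immunoglobulin genes were removed. Genes on X and Y, which the study's methods removed, were kept, since 4 of the 37 genes lie on X. Of 24979 genes, 13195 passed filterByExpr. With edgeR 4.0.16, TMM scaling and a robust quasi-likelihood fit of all 12 libraries, glmTreat tested each change against 1.5-fold at a Benjamini-Hochberg adjusted p of 0.05. RPKM used the deposited gene length. For gene pairs, log2 ratios per length, with 0.5 counts added, were compared over stages by an exact permutation test of the one-way F statistic over 10395 partitions, adjusted over 8 pairs. The steps were tested on simulated data with known changes.

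All 37 genes could be named. Of the other pathway genes, the called gene with the largest rise and the one with the largest fall at each transition were named, except 1 that is not reported here. The genes and lists were chosen with earlier results of these data known. Alternatives used DESeq2 1.42.0, other scalings, filters and fits, and each library left out. Adding the counts of the copies Impdh2-ps, Prps1l3, Tyms-ps and Gm5566 was chosen after seeing the data. Nothing in the sources used here says how the biological replicates were separated, so p-values measure the spread between these libraries.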

Additional observations from a re-analysis of the deposited data

How the results depend on the processing

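The direction of all 117 called changes held in each of their 2916 values under the alternatives, and 16 of them lost the call in 76 values. Of 142 changes that were not called, 79 were called in 150 values and 27 turned sign in 66. The F-test for a change of any size gave 8 falls from naive to 3 h, 25 rises and 8 falls from 3 h to 10 h, 15 and 4 from 10 h to 33 h, 3 and 12 from 33 h to expanded cells, 7 and 25 from expanded cells to plasmablasts, and 6 falls from naive to plasmablast. Library size alone gave 1 fall from 3 h to 10 h, 2 rises and 23 falls from expanded cells to plasmablasts, and 2 falls from naive to plasmablast. Without X and Y genes, which left 33 of the 37, 1 gene fell from naive to 33 h. Without the filter on low counts, or with the 4 libraries compared alone, 2 fell from naive to plasmablast. The cause of these shifts was not tested, beyond the smaller threshold of the F-test and the genes removed.

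Leaving out each library in turn gave 13 to 18 rises and 3 to 5 falls from naive to 3 h, 15 to 21 and 1 to 3 from 3 h to 10 h, 6 to 8 and 0 from 10 h to 33 h, 0 and 0 from 33 h to expanded cells, 2 to 5 and 12 to 18 from expanded cells to plasmablasts, 28 and 2 from naive to 33 h, and 20 to 21 and 1 to 2 from naive to plasmablast. The count of 1 fall from 3 h to 10 h came without 10 h replicate 2. The count of 2 rises to plasmablasts came without expanded replicate 1, expanded replicate 2 or plasmablast replicate 2, and that of 2 falls from naive to plasmablast without 3 h replicate 2. In these fits a lone library is assumed to vary like the other stages. The range of the pair ratios was then 3.33 to 3.83 for Prps2 to Prps1, 4.04 to 4.10 for Impdh2 to Impdh1, 3.55 to 3.97 for Ctps to Ctps2, 0.50 to 0.62 for Nme1 to Nme2, 1.19 to 1.45 for Shmt2 to Shmt1, 0.82 to 0.95 for Mthfd1l to Mthfd1, 4.26 to 4.41 for Rrm2 to Rrm1 and 3.41 to 3.94 for Tk1 to Dck.

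None of the 15 correlations of replicate deviations between stages was over 0.1 (-0.136 to 0.0968). These correlations cannot decide whether libraries with the same replicate number were paired, because noise in the counts of single genes can hide a shared effect. With the replicate number as a block 11 of 14 counts were equal, the others being 15 rises from naive to 3 h, 4 falls from 3 h to 10 h and 16 falls to plasmablasts, and the adjusted p of the pair ratios was 0.0028 to 0.021. Depth limits Tyms at 3 h most, with 19 and 36 counts.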

Other observations

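Of 68 further genes of nucleotide and one-carbon metabolism, 59 passed the filter. From naive to 3 h 14 rose and 15 fell by edgeR's TREAT test, where 20.9% and 24.2% of all genes did. The counts were 21 and 2 from 3 h to 10 h (17.2% and 13.3% of all genes), 3 and 2 from 10 h to 33 h (10.0% and 4.41%), 6 and 3 from 33 h to expanded cells (6.87% and 3.56%), and 6 and 15 from expanded cells to plasmablasts (14.0% and 12.1%). Slc29a2, an equilibrative nucleoside transporter, went from 5.97 and 6.03 RPKM at 10 h to 2.37 and 2.40 at 33 h, a change of -1.33 ± 0.19 (adjusted p = 0.0027). Ggh, the hydrolase that shortens folate polyglutamates, went from 4.98 and 4.19 RPKM in expanded cells to 18.2 and 15.4 in plasmablasts (1.87 ± 0.16, adjusted p = 6.5e-06). Ampd3, an AMP deaminase, went from 1.99 and 1.10 RPKM at 33 h to 0.353 and 0.315 in expanded cells (-2.22 ± 0.25, adjusted p = 1.8e-04).

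The other genes that the rule named were low. Gda, guanine deaminase, had 146 and 60 counts in naive libraries and 0 in each of the 10 others, and Ak4, a mitochondrial adenylate kinase, had 0 and 0 in naive cells and 8 and 15 at 3 h. Aldh1l2, the mitochondrial formyltetrahydrofolate dehydrogenase, had 2 and 3 counts at 3 h and 95 and 81 at 10 h. Xdh, xanthine dehydrogenase, went from 12 and 23 counts at 3 h to 6 and 2 at 10 h, and from 9 and 10 in expanded cells to 0 and 1 in plasmablasts. Nt5e, the ectonucleotidase CD73, had 5 and 2 counts at 33 h and 30 and 24 in expanded cells. The DNA replication list of 24 genes had 5 rises and 4 falls from naive to 3 h, where 20.9% and 24.2% of all genes did. It had 10 and 1 from 3 h to 10 h (17.2% and 13.3% of all genes) and 22 and 0 from 10 h to 33 h (10.0% and 4.41%). Later it had 0 and 1 from 33 h to expanded cells (6.87% and 3.56%) and 1 and 3 from expanded cells to plasmablasts (14.0% and 12.1%).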
